A study of Mus musculus with 95 samples.

Results

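The 9 genes Krt7, Krt8, Krt18, Krt19, Sox9, Cftr, Spp1, Muc1 and Tff2 are known from pancreatic duct cells or as keratins of simple epithelia, and they were picked by gene symbol from a table of 20638 genes. All 9 were found, and all 9 passed a low-count filter that kept 15839 genes. The libraries hold poly(A)-selected RNA of islets isolated from founder strain mice of the Diversity Outbred stock, all fed a high-fat, high-sugar diet labelled as 45% fat. There were 95 libraries, which bear numbers between 1 and 100. The labels tie no library to a strain, sex or age, so all libraries were treated as 1 set without groups, and values are given as the lowest, the median and the highest over the 95. The question asked of each gene was whether its level followed that of the digestive enzyme genes of acinar cells or moved apart from them.

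The exocrine pancreas consists of acini, which make digestive enzymes, and of ducts, which carry the juice to the gut and add bicarbonate and mucus to it. Islets are embedded in this tissue, and islet preparations carry varying amounts of it. Keratins of simple epithelia form filaments from 1 type I and 1 type II chain. Krt18 and Krt19 are type I chains, and Krt7 and Krt8 are type II chains. Krt8 and Krt18 are the widespread pair, also made by acinar and endocrine cells, while Krt19 and the transcription factor Sox9 are customary markers of adult ducts. Cftr is the chloride and bicarbonate channel of duct cells, Spp1 encodes the secreted phosphoprotein osteopontin, Muc1 a mucin anchored in the apical membrane, and Tff2 a small secreted trefoil peptide that is found with mucus.

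All 9 are protein-coding genes on GRCm38, with positions from the authors' table. Krt7 (ENSMUSG00000023039) spans chr15:101411043-101430313 on the plus strand, Krt8 (ENSMUSG00000049382) chr15:101996711-102004342 on the minus strand, and Krt18 (ENSMUSG00000023043) chr15:102028216-102032026 on the plus strand. Krt8 and Krt18 are thus neighbours that point away from each other. Krt19 (ENSMUSG00000020911) lies at chr11:100140810-100148665 on the minus strand and Sox9 (ENSMUSG00000000567) at chr11:112782224-112787760 on the plus strand. Cftr (ENSMUSG00000041301) lies at chr6:18170687-18322768, Spp1 (ENSMUSG00000029304) at chr5:104435118-104441050 and Muc1 (ENSMUSG00000042784) at chr3:89229057-89233381, all on the plus strand. Tff2 (ENSMUSG00000024028) lies at chr17:31141049-31144282 on the minus strand.

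The 250 bases before the RefSeq start of 4 of these genes are shown on the strand of the gene, 5′ to 3′, from RefSeq GRCm38.p6. Krt8 and Krt18 are shown because their levels moved together across the libraries, Muc1 because its level followed the acinar genes, and Krt7 because its level did not. The windows are chr15:101412153-101412402 for Krt7, which lies inside the gene as the authors' table places it, chr15:102004343-102004592 on the minus strand for Krt8, chr15:102027966-102028215 for Krt18 and chr3:89228806-89229055 for Muc1.
Krt7: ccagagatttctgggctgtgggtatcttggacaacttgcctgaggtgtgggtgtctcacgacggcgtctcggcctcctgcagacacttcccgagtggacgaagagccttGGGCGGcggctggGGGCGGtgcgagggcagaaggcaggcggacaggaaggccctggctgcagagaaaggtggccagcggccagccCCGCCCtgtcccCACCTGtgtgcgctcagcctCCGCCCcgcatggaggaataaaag
Krt8: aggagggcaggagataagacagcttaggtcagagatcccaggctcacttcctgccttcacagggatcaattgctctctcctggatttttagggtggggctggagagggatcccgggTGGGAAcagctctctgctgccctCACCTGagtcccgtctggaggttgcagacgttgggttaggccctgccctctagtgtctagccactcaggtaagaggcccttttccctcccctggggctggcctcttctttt
Krt18: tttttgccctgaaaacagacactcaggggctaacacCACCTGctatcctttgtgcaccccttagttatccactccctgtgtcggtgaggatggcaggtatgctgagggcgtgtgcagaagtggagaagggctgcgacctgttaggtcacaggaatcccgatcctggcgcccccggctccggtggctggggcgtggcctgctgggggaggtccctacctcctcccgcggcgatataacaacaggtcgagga
Muc1: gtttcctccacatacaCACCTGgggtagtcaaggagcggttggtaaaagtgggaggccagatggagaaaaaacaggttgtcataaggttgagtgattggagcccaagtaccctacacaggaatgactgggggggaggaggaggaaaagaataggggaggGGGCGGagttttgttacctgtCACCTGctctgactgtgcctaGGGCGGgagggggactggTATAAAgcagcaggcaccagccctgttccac
Capitals mark matches, on either strand, to 5 motifs: TATAAA (the TATA box), GGGCGG (the GC box), CACCTG and TGGGAA (the E box and the other element of the site of the acinar factor PTF1) and TGANTCA (the AP-1 site). A matching stretch is printed as the strand of the gene has it, so a GC box on the other strand reads CCGCCC, and no matches overlapped each other in these 4 windows. Over 32851 RefSeq windows of the same length, TATAAA was present in 12.4%, GGGCGG in 32.7%, CACCTG in 17.2%, TGGGAA in 21.6% and TGANTCA in 6.75%. The Krt7 window held 4 GC boxes and 1 CACCTG. The Krt8 window held 1 CACCTG and 1 TGGGAA, and the Krt18 window 1 CACCTG. The Muc1 window held TATAAA from base -31 to base -26 before the start, with 2 GC boxes and 2 CACCTG. These are letter matches and no binding was measured.

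Library totals ran from 16411809 to 34357253 estimated counts, with a median of 26552738. Levels are in CPM, counts scaled to the size of the library, and the sizes carried TMM factors (edgeR's trimmed mean of M values) between 0.459 and 1.29. Exocrine RNA was measured as the acinar share, the percentage of a library's counts in a list of 18 genes of acinar secretory products. It was 0.215% in library 25, 5.55% at the median and 34.3% in library 54, with 8 libraries over 25%. The largest gap in the log2 values of the share lay at its low end, between library 63 at 0.3597% and library 64 at 0.574%. The lowest shares, from 0.215% to 0.619%, were in libraries 25, 30, 61, 26, 63, 64 and 62. No fit below left all of these libraries out. Whether the libraries fall into clusters by this share was not tested. The label of the tissue was checked against 17 genes of beta cell identity, insulin included, which summed to a median of 176800 CPM and to at least 61580 CPM in every library. The most alike pair of libraries, 25 and 26, still differed by 8.60 times the sampling noise (chi-square per degree of freedom), so no library was counted as a repeat of another. Nothing in the labels says that each library came from its own animal, and libraries with nearby numbers were often alike, so the p-values below may be too small.

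The 9 genes fell apart into those that followed the acinar genes and those that did not. For each gene a slope was fitted, the log2 change in its level for each doubling of the acinar share (edgeR's quasi-likelihood test over the 95 libraries, p-values adjusted over all kept genes). Over all kept genes 14.8% had a positive slope at an adjusted p under 0.05 and 14.2% a negative one, and the median slope was -0.001. Of the 9, 5 rose with the acinar share (Tff2, Muc1, Cftr, Spp1 and Sox9), 2 fell (Krt7 and Krt8), and 2 did not pass the test (Krt18 and Krt19). The median slope of the 9 was 0.37. All 18 acinar genes rose, with slopes from 1.05 to 1.17, which the list's part in the share itself fixes. In bulk RNA, fewer cells of a type and less RNA per cell cannot be told apart.

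**Figure D1:**
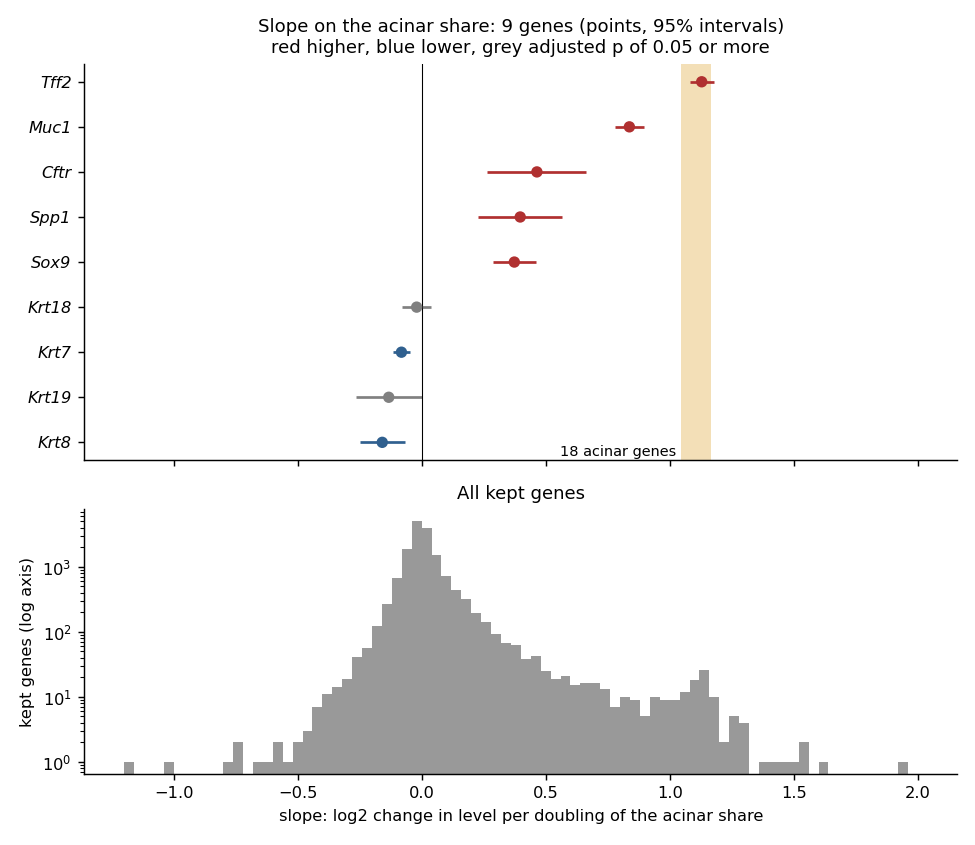
The upper panel plots the slope of each of the 9 genes, in log2 change of its level per doubling of the acinar share, as a point with its 95% interval, and the band spans the slopes of the 18 acinar genes. The lower panel is a histogram of the slopes of all 15839 kept genes with a log count axis. Tff2 at 1.13 lies within the band, Muc1 at 0.84 below it, Cftr, Spp1 and Sox9 between 0.37 and 0.46, and the 4 keratins between -0.16 and -0.02.

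The secreted and membrane proteins of mucus separated first. Tff2 had 2.18 CPM in library 25, 71.4 CPM at the median and 1307 CPM in library 54. The lowest and the highest library are the same as for the acinar share itself, and 9 libraries reached 500 CPM (8, 21, 35, 38, 39, 54, 55, 69 and 93). The slope of Tff2 was 1.13 (95% interval 1.08 to 1.18, edgeR adjusted p = 1.82e-63), the 47th highest of 15839. The acinar share accounted for 96.3% of the variance of its log2 CPM. The biological coefficient of variation, edgeR's estimate of the relative spread beyond counting error, was 118% for Tff2 with no covariate and 27.6% with the acinar share in the model, against medians of 26.1% and 25.2% over all kept genes.

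Muc1 had 0.691 CPM in library 26, 8.86 CPM at the median and 95.9 CPM in library 54. Its 5 libraries at 50 CPM or more (35, 54, 55, 69 and 93) were all among the 9 highest in Tff2. Its slope was 0.84 (95% interval 0.78 to 0.89, edgeR adjusted p = 5.00e-46), with 90.5% of its log2 variance along the acinar share. That interval lies below 1, so that Muc1 changed by less than the acinar share did. The coefficient of variation of Muc1 was 97.8% without the acinar share and 33.4% with it.

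The 3 duct genes Sox9, Cftr and Spp1 rose with the acinar share at less than a doubling per doubling. Sox9 had 0.713 CPM in library 48, 2.89 CPM at the median and 21.1 CPM in library 90. In 8 libraries it reached 10 CPM (21, 38, 54, 55, 69, 90, 93 and 95). Its slope was 0.37 (95% interval 0.29 to 0.46, edgeR adjusted p = 2.52e-11), and the acinar share accounted for 42.0% of its log2 variance. Its coefficient of variation was 71.3% without the share and 55.0% with it.

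Cftr was the lowest of the 9. Its median level was 0.267 CPM, which stood for 7 estimated counts, its highest was 5.55 CPM in library 90, and 5 libraries were at 0. A count of 0 in library 26, which is among those, allows up to 0.0902 CPM (3 counts), so library 90 was at least 61.6-fold higher, by counting error alone. The libraries at 0 were 26, 27, 30, 61 and 63, with acinar shares of 0.277% to 0.781%. Only 20 libraries reached 1 CPM. The slope of Cftr was 0.46 (95% interval 0.27 to 0.66, edgeR adjusted p = 0.000186), with 29.3% of its log2 variance along the acinar share. In the libraries numbered 50 or lower alone the slope was 0.28, with an adjusted p of 0.0624.

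Cftr also followed the library numbers. In libraries 91 to 100 its median was 2.30 CPM, with a range of 0.431 to 3.64 CPM. In the other runs of 10 library numbers the medians were between 0.142 and 0.347 CPM. The run from 81 to 90 was mixed. Libraries 86, 88, 89 and 90 had 2.33, 1.02, 1.28 and 5.55 CPM of Cftr, and libraries 81 to 85 had 0.116 to 0.239 CPM. Libraries 91 to 100 also carried more RNA of immune cells than the others. There the 10 macrophage genes summed to at least 104.7 CPM with a median of 548 CPM, against 41.9 to 345 CPM with a median of 81.0 CPM in libraries 1 to 90. The 10 lymphocyte genes summed to between 16.6 and 1177 CPM there, against 2.58 to 96.6 CPM in libraries 1 to 90. The 10 fibroblast genes summed to a median of 783 CPM in libraries 91 to 100 against 356 CPM in libraries 1 to 90, and the 17 beta cell identity genes to 135800 CPM against 182400 CPM. Libraries 91 to 100 also had the highest median acinar share of the runs, at 12.35%. The part of these differences in the level of Cftr was not tested beyond further fits of its slope. Without the libraries numbered above 90 the slope of Cftr was 0.36, and with the run of 10 as a factor 0.39. With a cell type score as a further term it was 0.41 for macrophages, 0.47 for fibroblasts and 0.36 for beta cell identity.

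Spp1 had 5.22 CPM in library 61, 59.0 CPM at the median and 906 CPM in library 90. The next library had 289 CPM, and 7 reached 200 CPM (1, 12, 37, 86, 89, 90 and 100). Its slope was 0.40 (95% interval 0.23 to 0.57, edgeR adjusted p = 0.000167), with 36.3% of its log2 variance along the acinar share. Without library 90 the slope was 0.36. With the acinar share in the model its coefficient of variation was still 83.0%, against 90.7% without it.

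**Figure D2:**
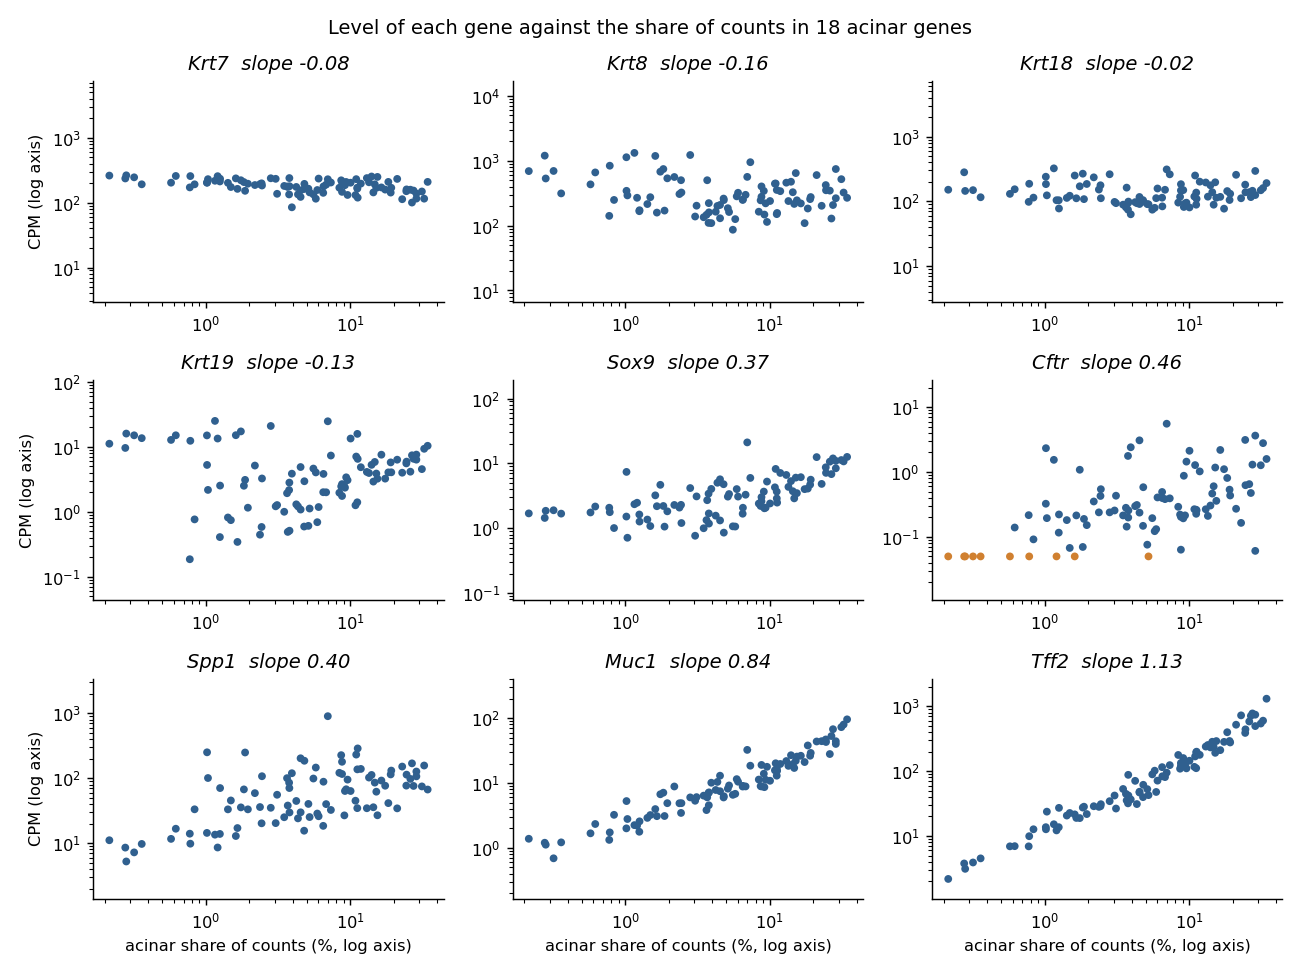
Each panel plots the CPM of 1 gene (log axis) against the acinar share of counts in percent (log axis), with 1 point for each of the 95 libraries, and gives the fitted slope. Orange points are the 10 libraries with Cftr under 0.05 CPM, drawn at 0.05. Tff2 and Muc1 form narrow rising bands, Sox9, Cftr and Spp1 rise with more scatter, and Krt7 runs almost level.

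The simple keratins behaved otherwise. Krt7 had 84.8 CPM in library 97, 186 CPM at the median and 264 CPM in library 61. It was the steadiest of the 9: its 10th and 90th percentiles were 0.85 apart on the log2 scale and its coefficient of variation was 23.5%, below the median of 26.1% over all kept genes. Its slope was -0.08 (SE 0.0170, 95% interval -0.11 to -0.05, edgeR adjusted p = 8.83e-05). Krt7 was thus lower where acinar RNA was higher. In libraries numbered above 50 alone the slope was -0.07 and did not pass (adjusted p = 0.0588), and with the run of 10 library numbers as a factor it was -0.05 (adjusted p = 0.0104).

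Krt8 had 86.4 CPM in library 34, 268.5 CPM at the median and 1321 CPM in library 32. The libraries with 1000 CPM or more were numbers 28 to 32, and 12 of the 22 with at least 500 CPM were numbers 21 to 32. In the run from 21 to 30 its median was 792 CPM, where the median acinar share was 1.43%. The slope of Krt8 was -0.16 (95% interval -0.25 to -0.07, edgeR adjusted p = 0.00530), and the acinar share accounted for 6.86% of its log2 variance. The call depended on the library numbers: with the run of 10 as a factor the slope was -0.027 (adjusted p = 0.716), and in libraries numbered above 50 it was 0.0022 (adjusted p = 0.984).

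Krt18 had 63.4 CPM in library 97, 119 CPM at the median and 324 CPM in library 32. Of the 13 libraries with at least 200 CPM, 9 were numbered from 21 to 32, and all of those except library 22 had 600 CPM or more of Krt8 as well. Its slope was -0.02 (95% interval -0.08 to 0.04, edgeR adjusted p = 0.661). The sign depended on the libraries, with a slope of -0.12 (adjusted p = 0.0389) in libraries numbered 50 or lower and 0.08 (adjusted p = 0.131) in those above 50.

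Krt19, the usual duct keratin, did not pass the test against the acinar share either. It had 0.186 CPM in library 81, 3.87 CPM at the median and 25.2 CPM in library 32. It reached 10 CPM in 17 libraries (4, 9, 25 to 29, 31, 32, 54, 59, 61 to 65 and 90), which range from the lowest acinar share of all in library 25 to the highest in library 54. By run of library numbers its median was 10.4 CPM from 21 to 30 and 8.68 CPM from 61 to 70, against 1.08 CPM from 72 to 80. Its slope was -0.13 (95% interval -0.27 to 0.00, edgeR adjusted p = 0.136), and the acinar share accounted for 0.01% of its log2 variance. Its rank correlation with the acinar share was positive at 0.114. In libraries numbered 50 or lower the slope was -0.20 (adjusted p = 0.0332), and with the run as a factor it was 0.014 (adjusted p = 0.917).

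**Figure D3:**
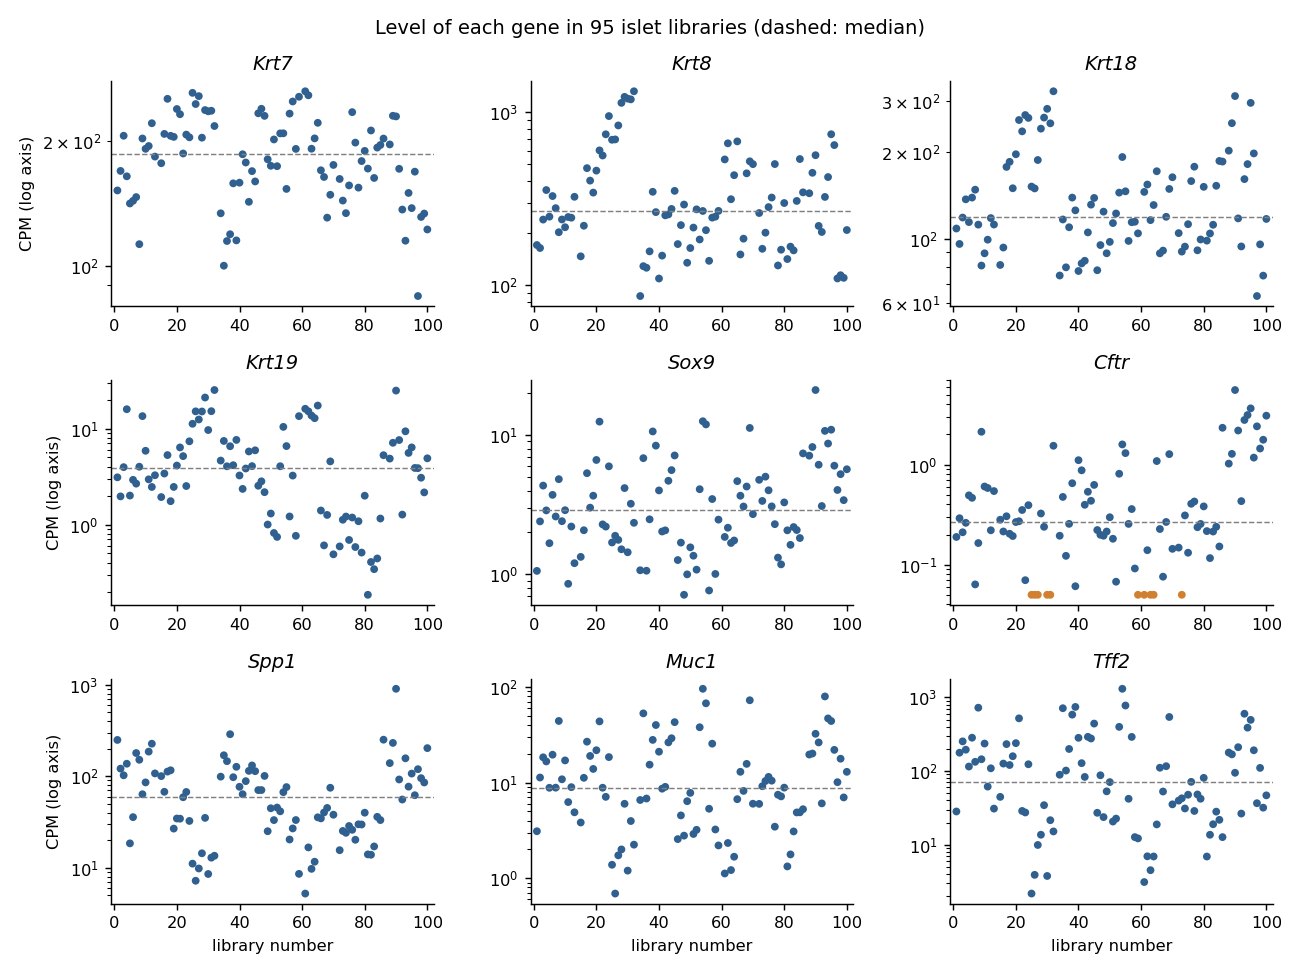
Each panel plots the CPM of 1 gene (log axis, with its own range) against the library number, with 1 point for each of the 95 libraries and a dashed line at the median. Orange points are libraries with Cftr under 0.05 CPM, drawn at 0.05. Krt8 peaks at libraries 28 to 32, and Krt19 is high from 25 to 32 and from 61 to 65. Cftr is high in most libraries from 86 to 100, and library 90 stands at the top for Sox9, Cftr and Spp1.

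The coefficient of variation without a covariate was above 50% in 7 of the 9, all except Krt7 and Krt18, against 24.5% of all kept genes. The share of log2 variance that lay between runs of 10 library numbers was 46.1% for Krt7, 39.6% for Krt8, 33.6% for Krt18, 33.8% for Krt19, 40.4% for Cftr and 37.2% for Spp1. It was lower for Tff2 at 27.5%, Muc1 at 17.1% and Sox9 at 14.7%. The median over all kept genes was 39.1%, with quartiles of 28.9% and 49.4%, so only Tff2, Muc1 and Sox9 lay below the lower quartile. The runs were cut by number alone. Libraries 31 and 32 had 1186 and 1321 CPM of Krt8. They shared a run with libraries 34 to 40, which had 86.4 to 346 CPM. How other cut points would change these shares was not tested.

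A further test set each gene against Krt7 within the same library. Krt7 was taken as the reference with earlier results of these data known, so these slopes are not independent of those above. The slope of the log2 ratio to Krt7 on the acinar share was 1.21 for Tff2 (limma adjusted p = 8.19e-67), 0.91 for Muc1 (8.31e-47), 0.56 for Spp1 (5.75e-11), 0.51 for Cftr (4.28e-09) and 0.46 for Sox9 (1.26e-14). For Krt18 it was 0.07 (limma adjusted p = 0.0228). It did not pass for Krt19 at 0.10 (limma adjusted p = 0.294) or for Krt8 at -0.05 (0.356). Krt7 itself fell, and 67.3% of 15838 genes had a positive ratio slope by the same rule and 1.48% a negative one, so that a positive call here is common. With runs of 10 library numbers as a factor 5587 of these genes had a positive ratio slope and 433 a negative one, against 10655 and 235 without it, and libraries numbered above 50 alone gave 3392 and 98. The ratio of Krt18 to Krt7 no longer passed without the libraries numbered above 90 (0.042, adjusted p = 0.180) or in those numbered 50 or lower (0.0034, adjusted p = 0.946).

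Correlations of log2 CPM with the log2 acinar share were computed as well. Spearman's rho was 0.985 for Tff2, 0.961 for Muc1, 0.702 for Sox9, 0.556 for Spp1 and 0.542 for Cftr, each with a permutation p of 1e-05, the smallest that 100000 resamples can give, and an adjusted p of 0.000127 over all kept genes. Pearson's r for these was 0.981, 0.952, 0.648, 0.603 and 0.541, each with a permutation p of 1e-05 and an adjusted p of 0.000135. For Krt7 rho was -0.424 (permutation p = 3e-05, adjusted 0.000305) and r was -0.453 (permutation p = 1e-05, adjusted 0.000135). For Krt8 rho was -0.150 (permutation p = 0.147, adjusted 0.267) and r was -0.262 (permutation p = 0.00994, adjusted 0.0354). For Krt19 rho was 0.114 (permutation p = 0.270, adjusted 0.416) and r was 0.01 (0.925, adjusted 0.954), and for Krt18 rho was 0.006 (permutation p = 0.955, adjusted 0.973) and r was -0.06 (0.590, adjusted 0.716). Over all kept genes 15.5% had a positive rho by this rule and 17.6% a negative one. Without libraries 25 and 30, the farthest from the median share, r was 0.979 for Tff2, 0.952 for Muc1, 0.649 for Sox9, 0.569 for Spp1, 0.506 for Cftr and -0.418 for Krt7. For Krt8 it was -0.190, for Krt19 0.0701 and for Krt18 0.00384. Krt7 missed the threshold after centring within runs of 10 library numbers, with a rho of -0.25 (adjusted p = 0.0667), and in libraries numbered above 50, with a rho of -0.36 (adjusted p = 0.0590).

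Of the pairs among the 9 genes, 18 had a rho of at least 0.35 in size. Tff2 and Muc1 had a rho of 0.940 and an r of 0.946, Sox9 and Muc1 0.789 and 0.767, Tff2 and Sox9 0.636 and 0.624, and Muc1 and Cftr 0.590 and 0.599. Spp1 had a rho of 0.574 and an r of 0.607 with Tff2, 0.563 and 0.606 with Muc1, and 0.471 and 0.559 with Cftr. Cftr had 0.543 and 0.574 with Sox9, and 0.510 and 0.505 with Tff2. Krt8 and Krt18, whose proteins assemble into 1 filament, had a rho of 0.878 and an r of 0.874. For that pair rho was 0.92 in libraries numbered 50 or lower, 0.85 in those above 50 and 0.85 after centring within runs. Krt19 had a rho of 0.489 and an r of 0.501 with Krt8, and 0.436 and 0.432 with Krt18. Krt7 had a rho of 0.486 and an r of 0.505 with Krt8, and 0.405 and 0.410 with Krt18. Between the sets, Krt7 was inversely related to Spp1, with a rho of -0.430 and an r of -0.425, to Muc1, with -0.393 and -0.416, and to Tff2, with -0.386 and -0.403. Sox9 and Krt18 had a rho of 0.383 and an r of 0.398. Over these 18 pairs the permutation p of rho was at most 0.00014 and its adjusted value over all kept genes at most 0.00097. By the same rule the share of all kept genes with a positive rho was 21.4% for Krt7, 18% for Krt8, 16.5% for Krt18, 16.7% for Sox9, 17.6% for Cftr, 18.3% for Spp1 and 14.9% for Muc1, and 23.9% had a negative rho with Krt7. Without the 2 libraries farthest from the median of 1 gene of the pair, r ran from 0.374 for Krt19 with Krt18 to 0.940 for Tff2 with Muc1 among the positive pairs, and was -0.405 for Spp1, -0.412 for Muc1 and -0.418 for Tff2 with Krt7. With the libraries farthest for the other gene left out, r of the positive pairs ran from 0.344 for Sox9 with Krt18 to 0.944. With Krt7 it was then -0.461 for Spp1, -0.426 for Muc1 and -0.355 for Tff2. Centring within runs took Krt18 with Krt7 to a rho of 0.25, Muc1 with Krt7 to -0.25 and Tff2 with Krt7 to -0.21 (permutation adjusted p = 0.0557, 0.0610 and 0.131), and Sox9 with Krt18 to 0.51. In libraries numbered above 50 the rho with Krt7 was 0.34 for Krt8 (adjusted p = 0.0531) and -0.32 for Tff2 (0.0705). In those numbered 50 or lower the rho with Cftr was 0.38 for Tff2, 0.37 for Muc1, 0.24 for Sox9 and 0.10 for Spp1, and none of the 4 passed (adjusted p between 0.148 and 0.771).

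**Figure D4:**
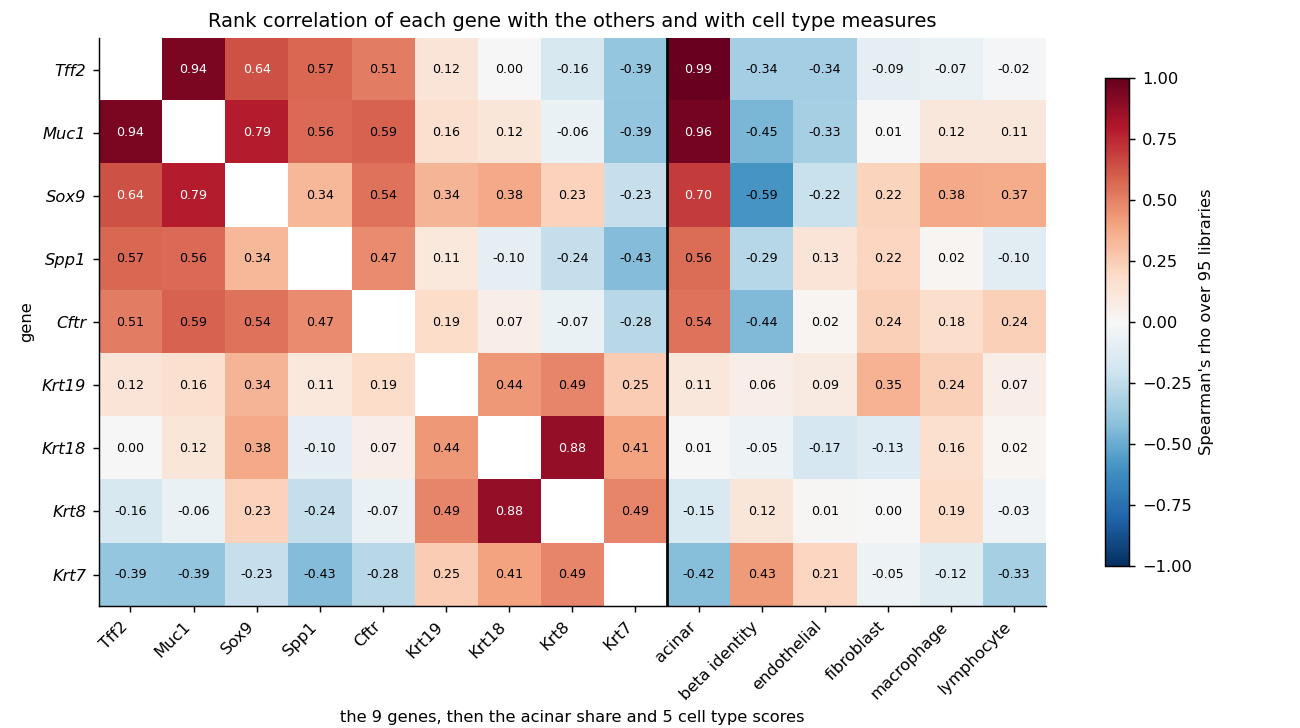
The map gives Spearman's rho over 95 libraries between each of the 9 genes (rows) and the other genes, the acinar share and 5 cell type scores (columns, the last 6 right of the line). Tff2, Muc1, Sox9, Spp1 and Cftr form a block of positive values with the acinar share. Krt8 and Krt18 are positively related to Krt7 and Krt19, but Krt7 with Krt19 is below 0.35. Krt18 is also related to Sox9, at 0.38. Krt8 with Krt18 at 0.88 is the strongest pair of the keratins.

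Scores of other cell types, each the mean z-scored log2 CPM of a marker list, were set beside the 9 genes as well. With the score of the 17 beta cell identity genes, Krt7 had a rho of 0.427 and an r of 0.526, Sox9 had -0.590 and -0.443, Muc1 had -0.454 and -0.319, and Cftr had -0.444 and -0.547. The permutation p was at most 0.00124 and its adjusted value at most 0.00283. By the same rule 24.3% of all kept genes had a positive rho with that score and 24.4% a negative one. Without libraries 97 and 100, r was 0.409 for Krt7, -0.559 for Sox9, -0.434 for Muc1 and -0.529 for Cftr. In libraries numbered 50 or lower alone rho was 0.24 for Krt7, -0.28 for Sox9, -0.34 for Muc1 and -0.0096 for Cftr, and none of the 4 passed.

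With the macrophage score Sox9 had a rho of 0.382 (permutation p = 0.00018, adjusted 0.00113) and an r of 0.361 (0.00025, adjusted 0.000695), and with the lymphocyte score a rho of 0.371 (permutation p = 0.00022, adjusted 0.00142) and an r of 0.331 (0.00094, adjusted 0.00233). Positive calls of this kind were made for 19.1% of all kept genes with the macrophage score and 19.9% with the lymphocyte score. Without libraries 97 and 100, r was 0.378 and 0.332. Cftr had a rho of 0.176 (permutation p = 0.0890, adjusted 0.169) and an r of 0.477 (1e-05, the smallest the permutations can give, adjusted 3.82e-05) with the macrophage score, and 0.236 (0.0213, adjusted 0.0522) and 0.424 (5e-05, adjusted 0.000164) with the lymphocyte score. Krt7 had a rho of -0.121 (permutation p = 0.241, adjusted 0.363) and an r of -0.362 (0.00039, adjusted 0.00104) with the macrophage score, and -0.331 (0.00117, adjusted 0.00524) and -0.492 (1e-05, adjusted 3.93e-05) with the lymphocyte score, where 20.3% of all kept genes had a negative rho that passed. Without libraries 97 and 100 these r were 0.402 and 0.342 for Cftr, and -0.215 and -0.392 for Krt7. After centring within runs the rho of Sox9 was 0.17 with the macrophage score and 0.087 with the lymphocyte score, and that of Krt7 with the lymphocyte score was -0.29, and none of the 3 passed. In libraries numbered 50 or lower the rho of Sox9 was 0.00054 with the macrophage score and 0.13 with the lymphocyte score, and neither passed. The rho with the macrophage score there was 0.44 for Krt7 (permutation adjusted p = 0.0373) and -0.29 for Cftr (0.181), against -0.52 (0.000839) and 0.52 (0.000976) in libraries numbered above 50. The rho of the 9 genes with the endothelial score lay between -0.338 for Tff2 and 0.215 for Krt7.

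Genes named next were among the 5 kept genes with the highest rho to each of the 9 over the 95 libraries, each with a permutation p of 1e-05 and an adjusted p of at most 0.000153. For Tff2 they were genes of acinar secretion and its neighbours: Zg16 of the zymogen granule (rho 0.995), the pancreatic disulfide isomerase Pdia2 (0.994), the elastase Cela1 (0.992), the colipase gene Clps (0.991) and the zinc transporter gene Slc39a5 (0.991). For Muc1 they were the amino acid transporter gene Slc38a3 (0.973), the transcription factor gene Tead2 (0.966) and the enzyme genes Prss2 (0.965), Cpb1 (0.964) and Cela3b (0.963). For Sox9 the nearest were Selenbp1 (0.841), the junction protein gene Cgnl1 (0.839), the integrin gene Itgb4 (0.829), Pacsin3 (0.826) and Pik3ap1 (0.812). Cftr was nearest to the laminin gene Lamb3 (0.778), the chaperone gene Clu (0.769), Habp2 (0.743), the catalase gene Cat (0.730) and Ankrd1 (0.721). Acinar enzyme genes were thus among the 5 nearest for Tff2 and Muc1 and absent from those of Sox9 and Cftr.

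Spp1 had Jtb (rho 0.795), C1rl (0.784), Trim5 (0.753), Klrb1b (0.723) and Gm42793 (0.723) nearest. Gm42793 overlaps Spp1 on the same strand and shares 14.3% of the 31-base words of Spp1, so their counts may be mixed. Krt7 had the sodium channel gene Scnn1g (0.796), the lysosomal glycosidase gene Gaa (0.779), Fam179a (0.774) and the cholesterol exporter gene Abca1 (0.759) among its nearest. For Krt8, besides Krt18, they included the transcription factor gene Ets2 (0.867), Mfsd6l (0.854) and the phosphatase gene Ptp4a1 (0.850). For Krt18, after Krt8, they were Ets2 (0.820), Eif2ak3, which encodes the kinase PERK of the unfolded protein response (0.810), Herpud1 of the degradation of misfolded proteins (0.793) and Ppp1r15b, a phosphatase subunit that acts on the target of PERK (0.781). For Krt19 they were AI464131 (0.732), Cpne8 (0.712), the stanniocalcin gene Stc2 (0.711), the claudin gene Cldn3 (0.685) and the ATP synthase gene Atp5g1 (0.680). No gene named here as nearest to a keratin is a digestive enzyme gene.

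Levels of different genes were compared as CPM per kilobase of the longest protein-coding transcript. The medians were 137 for Krt8, 122 for Tff2, 82.9 for Krt18, 45.4 for Krt7, 39.2 for Spp1, 3.95 for Muc1, 2.45 for Krt19, 0.699 for Sox9 and 0.0424 for Cftr. Some neighbours in this order changed places between libraries: Krt8 was above Tff2 in 47 of 95 libraries, Tff2 above Krt18 in 59 and Krt7 above Spp1 in 55. Others held their order, with Krt18 above Krt7 in 94 libraries, and Spp1 above Muc1 and Sox9 above Cftr in all 95. Muc1 was above Krt19 in 73 and Krt19 above Sox9 in 83.

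Per kilobase, the type II keratins Krt7 and Krt8 together exceeded the type I keratins Krt18 and Krt19 in all 95 libraries, by 1.05-fold in library 35, 2.05-fold at the median and 3.71-fold in library 25. Krt8 over Krt18 alone ran from 0.809 in library 35 over a median of 1.60 to 3.47 in library 31. Of the RNA of Krt7 and Krt8 together, Krt7 made up 7.30% in library 32, 22.9% at the median and 44.7% in library 56. Of that of Krt18 and Krt19 together, Krt19 made up 0.171% in library 81, 2.54% at the median and 13.2% in library 9. Other keratins were not counted in these shares. The duct keratin Krt19 was therefore lower than Krt18 in each library. Krt8 shares 32.2% of its 31-base words with the pseudogene Krt8-ps, which had at most 13.6 estimated counts, and Krt18 shares 9.31% with Gm5200, so these 2 levels are uncertain to the extent that reads were split.

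Of 40 other genes known from duct cells, 35 passed the filter, and 11 rose with the acinar share, 4 fell and 20 did not pass, beside 14.8% and 14.2% of all kept genes that rose and fell, with a median slope of 0.06 against -0.001 over all kept genes. The largest slope was that of Onecut1, a transcription factor gene of duct development, at 0.64 (edgeR adjusted p = 2.33e-10). The slopes were 0.33 for the secreted chaperone gene Clu (edgeR adjusted p = 1.11e-12), 0.26 for the water channel gene Aqp1 (0.0195) and 0.25 for the ceruloplasmin gene Cp (0.0398). Lcn2, which encodes a secreted iron-carrier protein, had a slope of 0.44 that did not pass (edgeR adjusted p = 0.119). The genes that fell were 3 of cell contacts, Cldn4 at -0.23 (edgeR adjusted p = 0.000483), Cldn7 at -0.11 (0.0179) and Cdh1 at -0.08 (0.000824), and the tetraspanin gene Tspan8 at -0.10 (0.0323). The transcription factor gene Onecut2 had a slope of -0.05 (edgeR adjusted p = 0.203). Several of these calls depended on the libraries used. In libraries numbered above 50 none of the 4 passed, with Cldn4 at -0.04 (edgeR adjusted p = 0.587), Cldn7 at 0.005 (0.937), Cdh1 at -0.07 (0.0669) and Tspan8 at -0.09 (0.231), and Tspan8 lost its call in 9 of 18 alternatives. Aqp1 did not pass in libraries numbered 50 or lower (0.12, adjusted p = 0.202), nor Cp above 50 (0.37, adjusted p = 0.103). With plain totals 2 of the 35 rose and 15 fell.

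Of 16 other keratin and keratin-associated genes listed, 8 were in the table and 7 passed the filter. Krt23 rose with a slope of 0.73 (edgeR adjusted p = 2.82e-17), Krt17 with 0.40 (0.00426) and Krtcap2 with 0.06 (4.35e-06). Krt17 no longer passed in libraries numbered above 50 (0.48, adjusted p = 0.0633), without libraries over 25% acinar (0.35, adjusted p = 0.0596) or with the beta cell identity score as a further term (0.25, adjusted p = 0.0625), and Krtcap2 fell with plain totals (-0.055, adjusted p = 2.16e-05). Krtcap3 at 0.01, Krt222 at 0.00, Krt10 at -0.01 and Krt80 at -0.01 did not pass. Krt23 had a median of 0.955 CPM and Krt17 one of 0.843 CPM, so both type I keratins were scarce beside Krt18. Of 12 other trefoil, mucin and gastric genes, 6 were in the table and 3 passed the filter, and none of the 3 passed the test: Muc20 at 0.05, Muc4 at -0.09 and Muc13 at -0.10 (edgeR adjusted p between 0.156 and 0.700), with 0 at an unadjusted p under 0.05 and 0 with DESeq2's test. Muc20 passed in opposite directions in the 2 sets of libraries, at 0.16 (edgeR adjusted p = 0.0459) in those numbered 50 or lower and -0.11 (0.0127) in those above 50. Muc4 passed with plain totals, at -0.21 (edgeR adjusted p = 0.000589), and on the deposited values, at -0.11 (limma adjusted p = 0.0491), and without the filter Muc6 passed at 0.34 (edgeR adjusted p = 0.0225). Tff3, the intestinal trefoil peptide gene, had a median of 0.0990 CPM and did not pass the filter.

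Of 17 beta cell identity genes 4 fell and 13 did not pass, and of 9 endothelial genes 4 fell and 5 did not pass, beside 14.2% of all kept genes that fell. Without the libraries over 25% acinar 1 of the 17 and 3 of the 9 fell, and with plain totals, which lowered the slopes of most genes, all 17 and all 9 did. None of 8 alpha cell, 4 delta cell, 10 fibroblast, 10 macrophage and 10 lymphocyte genes passed in either direction with edgeR. Of these 42, Slc7a2 and Pdgfra had an unadjusted p under 0.05, and the same number, 2, passed with DESeq2's test. All 7 genes of a list of acinar transcription factors rose, with a median slope of 0.64. The smallest were those of Foxp2 at 0.13 and Xbp1 at 0.06. With plain totals Xbp1 fell at -0.05 (edgeR adjusted p = 7.68e-07) and Foxp2 did not pass at 0.005 (0.904), nor did Foxp2 in libraries numbered above 50 (0.14, adjusted p = 0.0578).

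Library 90, singled out after its values were seen, stood out for many duct genes, though not alone and not for duct genes only. It had the highest level of the 95 for Sox9, Cftr and Spp1 and the second highest for Krt18 (311.5 CPM) and Krt19 (24.8 CPM). It was 13th for Muc1, 16th for Krt8, 20th for Krt7 and 43rd for Tff2. Its neighbours 86, 88 and 89 shared part of this, as they did for Cftr. Sox9 had 7.39, 7.12 and 8.21 CPM there, and Spp1 251.5, 139.4 and 231.9 CPM. In libraries 81 to 85 Sox9 had 1.63 to 2.19 CPM and Spp1 13.9 to 36.0 CPM. The acinar share of library 90 was close to the median, at 6.98%. Of the other duct genes, 15 of 35 (42.9%) had their highest level in it, as had 2 of the 7 other keratin genes, against 660 of 15839 kept genes (4.17%) and 0 of 18 acinar genes. Lcn2 had 70.2 CPM there against a median of 0.244 CPM, Pigr, the carrier of secreted antibodies, 193 CPM against 8.66 CPM, Onecut1 10.3 CPM against 0.484 CPM, and Krt17 29.1 CPM against 0.843 CPM. The 10 fibroblast genes also summed to their highest value there, 1469 CPM against a median of 383 CPM. Of these 10, 3 had their highest level in library 90. It was among the top 3 libraries for 6 of the 10, against 18 of the 35 other duct genes. The 10 macrophage genes summed to 345 CPM, the highest of libraries 1 to 90, whose median was 81.0 CPM. The part of these cells in the levels of library 90 was not tested. Without library 90 every slope of the 9 kept its sign and its call.

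**Figure D5:**
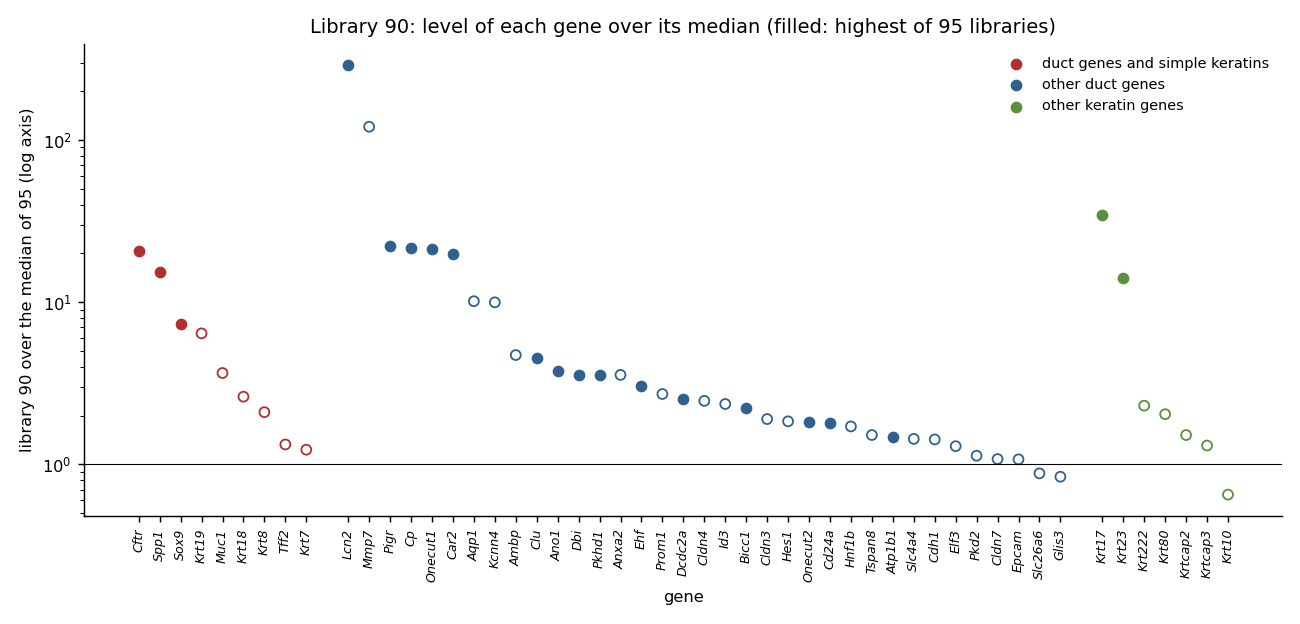
For each of the 9 genes (red), the other duct genes (blue) and the other keratin genes (green), the plot gives the level in library 90 over the median of the 95 libraries on a log axis. Filled points are genes whose highest level of all was in library 90. The ratio was 20.8 for Cftr, 15.4 for Spp1, 7.29 for Sox9, 1.33 for Tff2 and 1.23 for Krt7.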

How the data were processed

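RNA-seq of 95 mouse islet libraries was analysed from 2 deposited tables with 0 columns left unused. The authors deposited estimated counts per gene with no normalization, of which 67.7% were whole to within 1e-06, and variance-stabilised values on a scale close to log2, also made by the authors. The submitters' processing notes name GRCm38 and DESeq2. The aligner, counter, annotation release and use of strand are not given in the sources used here, so reads of Krt7, Krt8 and Cftr cannot be told apart from those of their opposite-strand neighbours Gm671, Gm36026 and Gm15592. The spike-in mix named in the labels' protocols had 0 entries in the table.

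Counts were rounded. Kept genes reached a CPM of 1 in 10 or more libraries, and log2 CPM used a prior count of 2. Slopes came from edgeR 4.0.16 with TMM, ratios to Krt7 from limma 3.58.1 (R 4.3.3), and correlations from two-sided permutation tests with 100000 resamples, all with Benjamini-Hochberg adjustment over all kept genes and a threshold of 0.05. The lengths are those of the longest coding transcript in GENCODE M21, where 20532 identifiers matched. Promoter windows came from RefSeq, with entries matched by symbol for 6 of the 9 genes. Intervals and floors cover counting error only, apart from the 95% intervals of slopes.

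The 9 genes and the lists were chosen with earlier results of these data known. Named are the 9, the 5 genes nearest to each, and in the lists of other duct genes, keratins and mucins the 5 largest and 5 smallest slopes, or all where 10 or fewer were kept. Of these, 2 genes are not reported here. Lcn2, Pigr, Onecut1 and Krt17 in library 90, and Tff3, Muc6, Foxp2, Xbp1, Slc7a2 and Pdgfra, were chosen after their values were seen. Alternatives covered DESeq2 1.42.0 (size factors and test), no filter, a prior count of 0.5, other acinar measures, other totals, the deposited log2 values, subsets of libraries and a factor for runs of 10 library numbers. Plain totals, 3 cell type scores as further terms and leaving out library 90 were added after seeing the data. The steps were tested on simulated data. No library could be assigned to a group.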

Additional observations from a re-analysis of the deposited data

How the results depend on the processing

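Of the slopes of the 9 genes on the acinar share under 18 alternatives each, 150 kept their direction and their side of the threshold, among them all those of Tff2, Muc1, Sox9 and Spp1. In libraries numbered above 50 the slope was -0.0657 for Krt7 (no longer passing), 0.00216 for Krt8 and 0.0802 for Krt18. In those numbered 50 or lower it was -0.12 for Krt18 and -0.20 for Krt19, both then passing, and 0.28 for Cftr, no longer passing. With runs of 10 library numbers as a factor it was -0.0268 for Krt8, 0.0556 for Krt18 and 0.0141 for Krt19, and on the acinar transcription factors it was 0.0216 for Krt18. Plain totals without TMM moved the median slope of all genes to -0.118, with Krt18 at -0.14 and Krt19 at -0.25 and both then passing. With plain totals 552 genes rose and 11893 fell, against 2344 and 2254 with TMM. Libraries above 50 alone gave 1429 genes that rose and 1321 that fell, and leaving out libraries over 25% acinar gave 1406 that fell. On the deposited log2-like values, which compress low levels, the slope was 0.0923 for Cftr and 0.17 for Sox9, and both passed.

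The slope of the ratio to Krt7 was -0.0467 for Krt19, 0.0034 for Krt18 and -0.17 for Krt8 (then passing) in libraries numbered 50 or lower. It was 0.0719 for Krt8 above 50, 0.0515 for Krt8 with runs as a factor, and 0.0422 for Krt18 without libraries above 90. The rho with the acinar share was -0.36 for Krt7 and 0.0287 for Krt8 above 50, and -0.20 for Krt18 and -0.0134 for Krt19 at 50 or lower. Centred within runs it was -0.25 for Krt7, 0.12 for Krt8 and 0.33 for Krt18, the last then passing. Of all genes, 376 had a negative ratio slope without libraries above 90, against 235. For the other correlations with a rho of at least 0.35 in size, 79 values kept their call and 17 lost it, all with the same sign. Smaller correlations were not counted. Among those, Krt7 and Cftr with the macrophage score changed sign in libraries numbered 50 or lower. Where a value changed with a setting, the cause was not tested. No paired analysis was possible because the labels give no groups. Depth limits Cftr most, with 16 libraries under 3 counts.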
